A study of Mus musculus with 2 samples.

Results

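The cytosolic ribosomal protein genes encode the proteins that, with the ribosomal RNAs, make up the large and small subunits of the ribosome outside mitochondria. They were taken as the protein-coding genes of GENCODE release M21 whose symbol starts with Rpl or Rps and a digit, with Rplp0, Rplp1, Rplp2 and Rpsa added. The S6 kinase genes, Rps19bp1 and Rpl7l1 share the prefix and were left out. The rule gave 90 of 21938 protein-coding genes. Of these, 77 encode standard ribosomal proteins, 46 of the large subunit with its 3 stalk proteins and 31 of the small subunit. A further 7 are paralogs (Rpl3l, Rpl10l, Rpl22l1, Rpl36al, Rpl39l, Rps27l and Rps27rt), and 6 carry a pseudogene suffix although the annotation calls them protein-coding (Rpl10-ps3, Rpl36-ps4, Rpl36a-ps1, Rpl9-ps1, Rpl9-ps6 and Rps12-ps3).

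Open chromatin was mapped by DNase-seq, which sequences the ends of fragments that the nuclease DNase I cuts from nuclei, in whole gastrocnemius, a calf muscle. The labels give male B6CASTF1/J mice of 25 days and name no treatment, genotype or transgene. There is 1 group of 2 libraries, biological replicates 1 and 2, from separate biosamples that carry the same donor identifier. With no second condition, values of the ribosomal protein genes are set beside those of all protein-coding genes within each library, without a test.

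Replicate 1 held 97499 peaks and 243784 footprints, and replicate 2 held 61664 peaks and 171389 footprints. A footprint is a short stretch within open chromatin that is cut less than its surroundings, as under a bound protein. Signal is the authors' value for a peak, which behaves as tags per 1000000 tags of the library, since it moves in steps of 1 tag worth 0.00591 in replicate 1 and 0.00854 in replicate 2. These steps put the libraries at 169 and 117 times 1000000 tags. All 7 markers of skeletal muscle had a promoter peak in both libraries, while none of the 6 markers of leukocytes, hepatocytes and red cells did. The 2 fibroblast and 2 endothelial markers and 1 of 2 satellite cell markers were open in both as well, so the values come from a mixture of cell types, in which more open cells of a type and more signal per cell cannot be told apart.

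Ribosomal protein genes are transcribed by RNA polymerase II in nearly every cell, and their products are needed in equal numbers, because each ribosome takes up a single copy of most of them. Their promoters are short, rich in CpG and usually lack a TATA box, and their messenger RNAs begin with a C and a run of pyrimidines, the 5' terminal oligopyrimidine tract through which mTOR controls their translation. In muscle, growth of fibres after birth and under load goes with the building of new ribosomes.

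Every standard ribosomal protein gene had an open promoter in both libraries, and most stood in the upper part of the range of open promoters. A promoter peak, within 1 kb of any annotated start, was found for 81 of the 90 genes in replicate 1 and 80 in replicate 2, against 66.5% and 64.2% of all protein-coding genes. It was found in both libraries for 80 genes, 77 of 77 standard members among them, against 63.0% of all protein-coding genes. The strongest promoter peak of the standard members had a median signal of 5.89 in replicate 1 and 5.32 in replicate 2, and that of all protein-coding genes with a peak 3.57 and 3.43, which makes 1.65 and 1.55 times. Ranked among all open protein-coding promoters of the same library, the 90 genes' open promoters had a median percentile of 72.4 and 75.8 (mean 74.1 ± 2.43, SD, n = 2).

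The signal was above the median of coding genes in both libraries for 64 of the 80 open members, against 47.1% of protein-coding genes open in both. It lay in the top 10% in both for 11 members, 9 of them standard, against 6.84%. Of the standard members 61 stood above the median in both libraries and 9 below it in both. An open promoter of a ribosomal protein gene was thus not always a strong one.

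**Figure D1:**
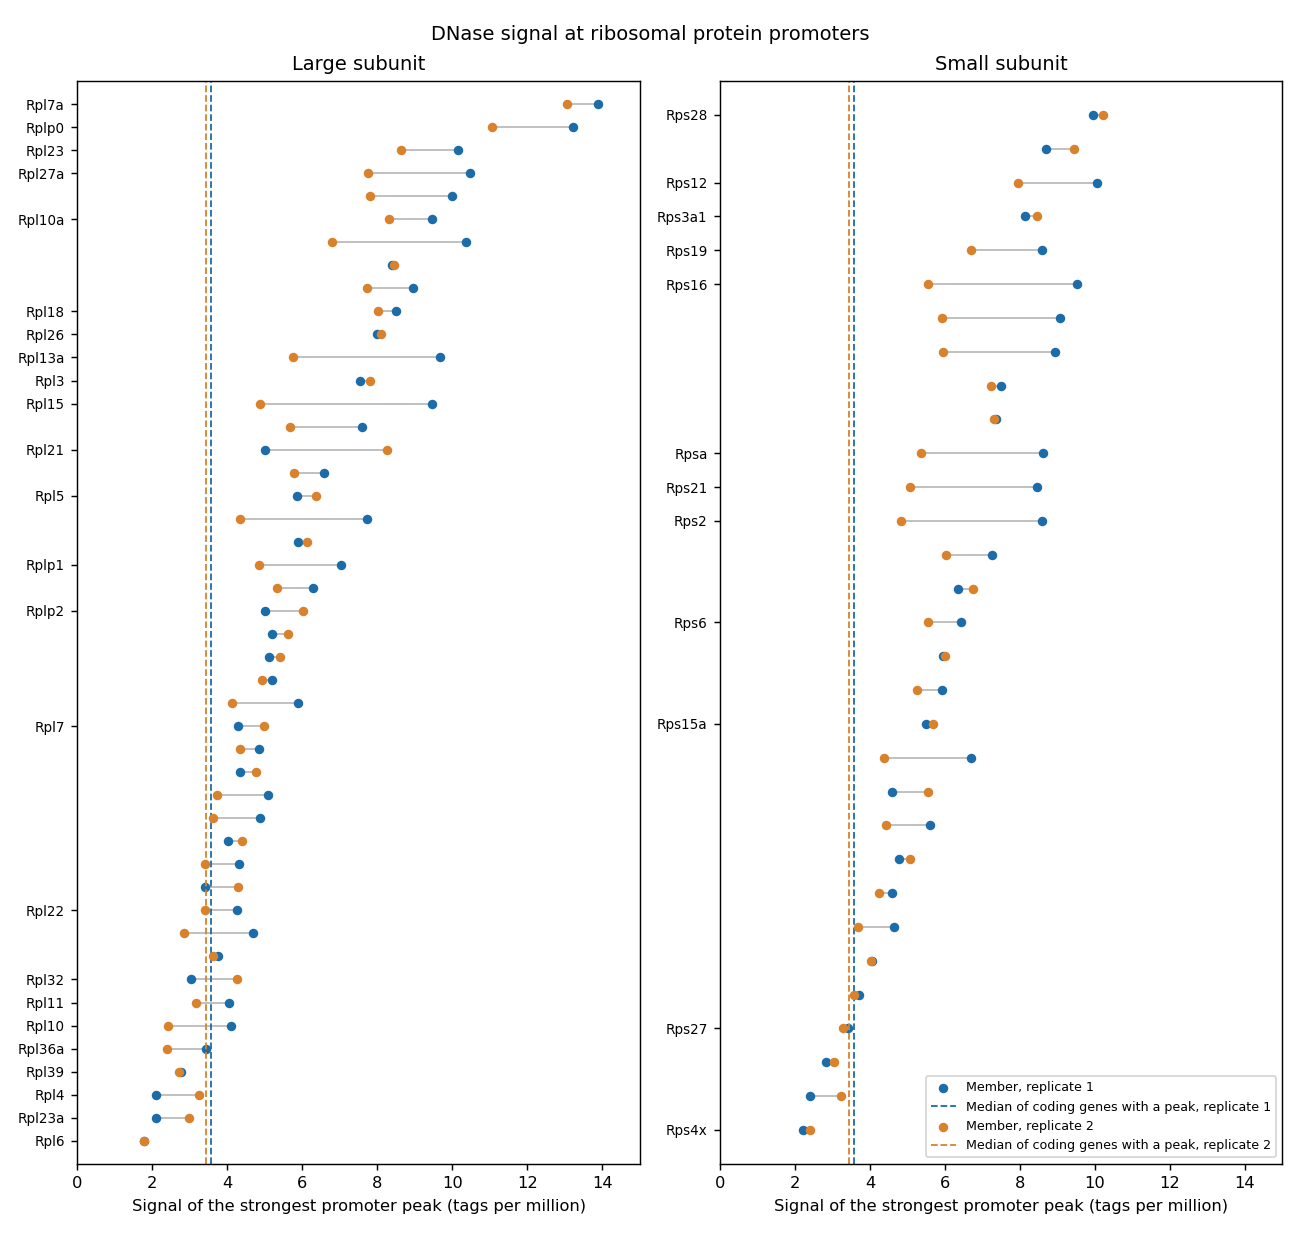
Signal of the strongest promoter peak (x axis, tags per 1000000) of each standard ribosomal protein gene (y axis), large subunit on the left and small subunit on the right, with 1 point per library and dashed lines at the median of all protein-coding genes with a peak in that library; only some of the genes the text names are labelled. Rpl7a and Rplp0 stand at the top with 13.9 and 13.2 in replicate 1, and Rpl6 at the bottom with 1.79.

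The members differed several-fold among themselves although their proteins are needed in like numbers. The standard members' signal ranged over 7.77-fold in replicate 1 (302 to 2347 tags) and 7.35-fold in replicate 2 (208 to 1529 tags). Across the 77 genes, which share both libraries and are not replicates, the signals of the libraries gave a Pearson's r of 0.836 for log2 values and a Spearman's rho of 0.815. Of the 10 highest in replicate 1, 4 were among the 10 highest in replicate 2, and of the 10 lowest 6 were.

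The 3 highest were Rpl7a, Rplp0 and Rps28. Rpl7a, a large subunit protein, had a signal of 13.9 in replicate 1 and 13.1 in replicate 2 (13.5 ± 0.578, SD, n = 2). Rplp0, the base of the stalk on which elongation factors dock, had 13.2 and 11.1 (12.2 ± 1.53). Rps28, a small subunit protein near the messenger RNA exit, had 9.95 and 10.2 (10.1 ± 0.187). The lowest of their 6 percentiles among open coding promoters was 94.4, for Rps28 in replicate 1. Next came 2 more large subunit proteins, Rpl23 with 10.2 and 8.64 and Rpl27a with 10.5 and 7.75, and Rps12 of the small subunit with 10.1 and 7.96.

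The sequences of the 3 highest promoters, from 120 bases before the principal start to 30 bases from it, are shown because their motifs differ. They are those of the reference genome (RefSeq GRCm38.p6, the assembly of mm10) in the direction of transcription, and were not read from these mice. Capitals mark matches to any of 10 short factor motifs, searched on both strands and spelled out with their shares further on. Positions count from 1 at the start, with -1 the base before it.
Rpl7a (chr2:26910644-26910793, plus strand): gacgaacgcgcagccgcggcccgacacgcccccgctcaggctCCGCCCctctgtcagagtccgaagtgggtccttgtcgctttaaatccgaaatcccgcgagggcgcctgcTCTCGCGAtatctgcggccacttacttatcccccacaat
Rplp0 (chr5:115559347-115559496, plus strand): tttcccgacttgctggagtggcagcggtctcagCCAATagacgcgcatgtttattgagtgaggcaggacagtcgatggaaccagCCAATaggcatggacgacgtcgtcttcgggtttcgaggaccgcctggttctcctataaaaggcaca
Rps28 (chr17:33824533-33824682, minus strand): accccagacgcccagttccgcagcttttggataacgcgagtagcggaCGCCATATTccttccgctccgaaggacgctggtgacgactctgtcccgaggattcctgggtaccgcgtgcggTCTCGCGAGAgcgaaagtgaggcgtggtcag
Rpl7a holds TCTCGCGA from -9 to -2 and a GC box from -78 to -73, both in footprints of both libraries. Rplp0 holds CCAAT from -87 to -83 and from -36 to -32, both in footprints of both libraries. Rps28 holds TCTCGCGAGA across its start, from -1 to 9, in footprints of both libraries, and a YY1 motif on the opposite strand from -73 to -65, outside footprints. A match is a run of letters, and no binding was measured.

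At the low end stood Rpl6, Rps4x, Rpl23a, Rpl4 and Rpl39. Rpl6, a large subunit protein, had 1.79 in replicate 1 and 1.78 in replicate 2, from 302 and 208 tags, at a mean percentile of 27.2. Rps4x, the X-linked small subunit protein, had 2.19 in replicate 1 and 2.39 in replicate 2. Rpl23a, at the exit of the nascent chain, had 2.08 and 2.98. Each still had 4 or more footprints within 1 kb of a start in each library. Rpl4 had 2.09 and 3.26 at a peak centred at -455 and -465 from its principal start, a peak that also lies within 1 kb of the start of Zwilch, which encodes a kinetochore protein. Rpl39, which lines the exit tunnel, had 2.75 and 2.72.

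The 4 standard members on the X chromosome (Rpl10, Rpl36a, Rpl39 and Rps4x), which males carry once, had a median signal of 3.09 in replicate 1 and 2.41 in replicate 2, and the 73 on autosomes 5.93 and 5.39. Their median percentile was 44.6 and 35.2, and that of all open protein-coding genes of the X chromosome 26.8 and 21.6. None of the 4 X-linked members stood above the median of coding genes in both libraries. Of the 437 protein-coding genes of the X chromosome open in both, 29 did, so the count was near the background of this chromosome. The 31 small subunit genes had a median percentile of 77.1 ± 0.766 and the 46 large subunit genes one of 68.6 ± 3.51 (SD, n = 2 libraries), with 27 of 31 and 34 of 46 above the median of coding genes in both libraries. The difference between the subunits was not tested.

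Several members known for roles beyond or within the ribosome lay in the middle or upper range. Rps6, which the S6 kinases phosphorylate downstream of mTOR, had 6.41 in replicate 1 and 5.55 in replicate 2. Rps19, loss of which causes Diamond-Blackfan anaemia in people, had 8.58 and 6.68. Rpl5 and Rpl11, which bind and inhibit Mdm2 when ribosome assembly fails, had 5.87 and 6.36 for Rpl5 and 4.05 and 3.16 for Rpl11. The stalk proteins Rplp1 and Rplp2, which form dimers on Rplp0, had 7.04 and 4.84 for Rplp1 and 5.00 and 6.02 for Rplp2. Rpsa, a small subunit protein that was first described as a laminin receptor, had 8.61 and 5.37. The 3 stalk genes thus did not share a level, with Rplp0 above both of the others in each library.

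**Figure D2:**
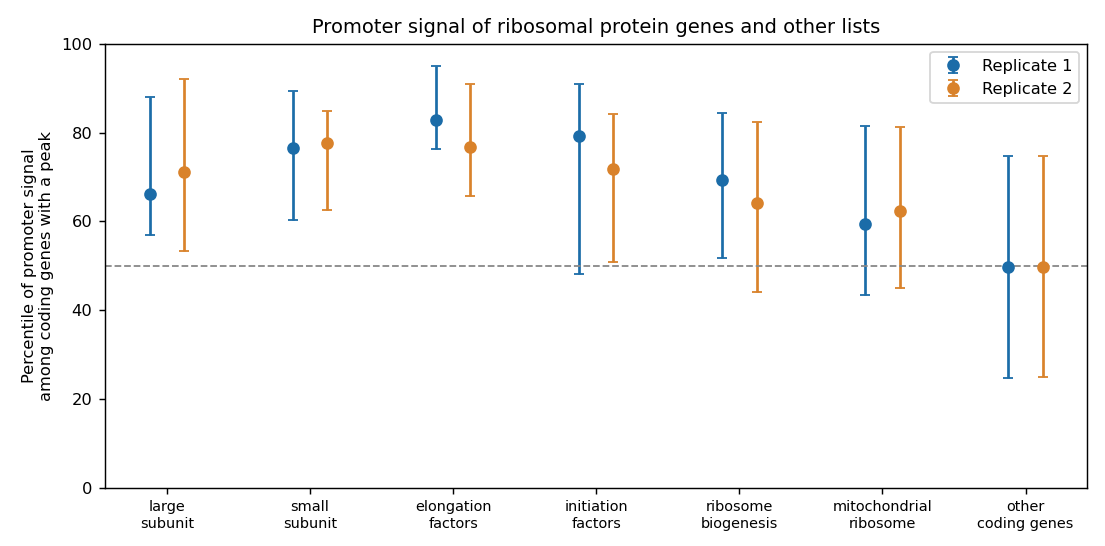
Median (points) and quartiles (bars) of the percentile of promoter signal among protein-coding genes with a peak (y axis) for the large and small ribosomal subunits, 4 other lists and all other coding genes, in each library. The small subunit lies at 76.5 and 77.6, the mitochondrial ribosome at 59.5 and 62.4, and the other coding genes at 49.8 and 49.8.

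Other genes of the translation machinery were also open without exception. All 78 genes of mitochondrial ribosomal proteins had a promoter peak in both libraries, with a median signal of 4.50 and 4.29 and a median percentile of 61.0 ± 2.07 (SD, n = 2), against 73.7 ± 2.29 for the standard cytosolic members. The 28 initiation factor genes had 75.5 ± 5.31, the 8 elongation factor genes 79.8 ± 4.30 and the 30 ribosome biogenesis genes 66.8 ± 3.55. The difference between these lists was not tested, and the translation factors overlapped the range of the ribosomal proteins. Of the ribosomal proteins with other symbols, Fau, whose product is cleaved into a small subunit protein, had 9.84 and 8.02. Rack1, a scaffold on the small subunit, had 3.38 and 3.63. The 14 genes of regulators such as Mtor and Myc had a median percentile of 75.1, with 2.31 in replicate 1 and 2.44 in replicate 2 at Myc.

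The paralogs split into ones with a promoter peak and ones without. Rpl36al had 10.2 in replicate 1 and 7.74 in replicate 2, against 3.42 and 2.38 for its X-linked counterpart Rpl36a. Rpl22l1, which can take the place of Rpl22, had 9.14 and 7.21, against 4.26 and 3.41 for Rpl22. Rps27l, a p53 target in human cells, had 6.37 and 5.47, against 3.41 and 3.27 for Rps27. In all 3 pairs the paralog had the higher signal in both libraries, but the strongest peak of Rpl36al is shared with Mgat2 and that of Rps27 with Rab13, so these signals cannot be assigned to 1 gene. Rpl10l and Rpl39l, known from the testis, and Rps27rt had no promoter peak and no footprint in either library, while Rpl10 (4.10 and 2.42) and Rpl39 were open. The 6 members with a pseudogene suffix had no promoter peak and no footprint in either library. How reads that match several gene copies were placed is not stated, so peaks at such copies may have been missed.

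Rpl3l was the member on which the libraries disagreed. It encodes the paralog of Rpl3 that striated muscle uses in place of Rpl3 in part of its ribosomes. In replicate 1 it had 4 promoter peaks, the strongest over its start at chr17:24727681-24727920 (mm10) with a signal of 1.99 and 336 tags, and 10 footprints within 1 kb of its starts. In replicate 2 it had no promoter peak and no footprint, while Rpl3 had peaks in both. Within 1 kb of its principal start 563 bp lay below a false discovery rate of 0.05 in replicate 1 and 9 bp in replicate 2, with a lowest rate of 9.1e-14 in replicate 1 and 0.041 in replicate 2.

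Among all protein-coding genes 764 had a promoter peak in replicate 1 alone, with a median signal of 0.461, and Rpl3l was 1 of 5 with a signal as high as its own. Its neighbours were open in both libraries, with 8.59 and 4.83 at Rps2, 6.48 and 7.63 at Ndufb10, and 7.40 and 3.26 at Msrb1. Rpl3 itself, on chromosome 15, had 7.53 in replicate 1 and 7.79 in replicate 2. The 7 muscle markers were all lower in replicate 2 (summed signal 27.0 in replicate 1 and 21.7 in replicate 2). The 2 fibroblast markers summed to 7.19 and 7.35, and the 2 endothelial markers to 1.89 and 1.79. Before centring, 50 of the 77 standard members were lower in replicate 2, a count given without the share of all protein-coding genes. All promoters open in both had a median log2 ratio of 0.116, replicate 1 over replicate 2, a shift in the same direction. The part of these differences in the absence of Rpl3l peaks was not tested. Instrument models are named for replicate 1 alone, so sequencing and animal cannot be told apart here.

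**Figure D3:**
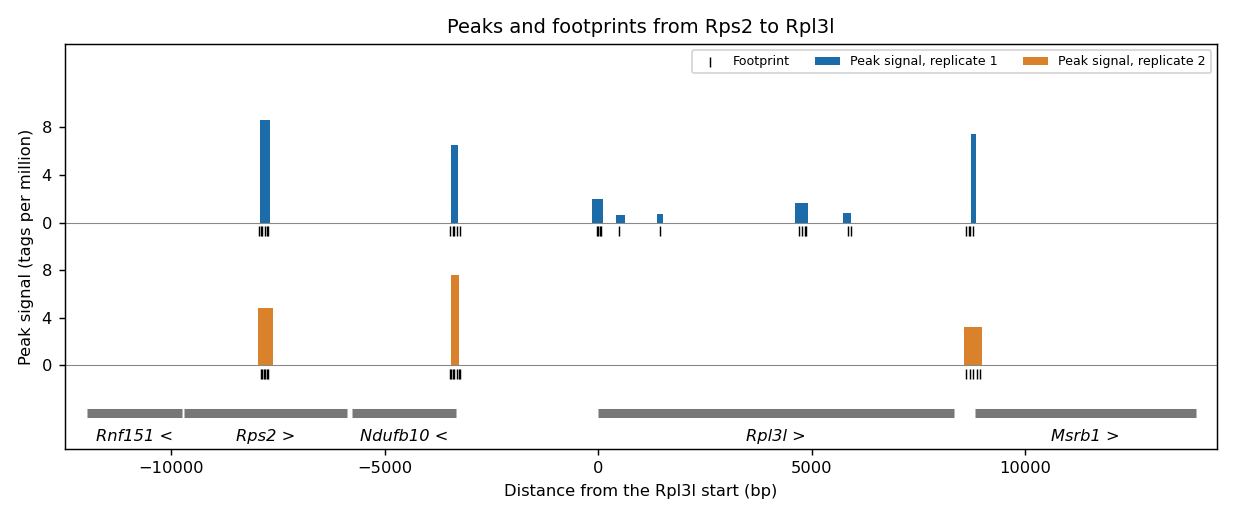
Peak signal (bars, tags per 1000000, bars under 120 bp wide drawn at 120 bp) and footprints (ticks) by distance from the Rpl3l start, replicate 1 above and replicate 2 below, with gene bodies and their direction at the bottom. Rps2, Ndufb10 and Msrb1 have peaks in both libraries, and the 5 peaks from the Rpl3l start to 5920 bp after it are in replicate 1 alone.

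The promoters of Rpl3l and Rpl3 are shown for their different motifs, with the same window and capitals.
Rpl3l (chr17:24727700-24727849, plus strand): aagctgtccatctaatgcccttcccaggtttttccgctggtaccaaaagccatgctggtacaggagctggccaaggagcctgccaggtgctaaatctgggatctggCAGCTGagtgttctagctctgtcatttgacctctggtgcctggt
Rpl3 (chr15:80083377-80083526, minus strand): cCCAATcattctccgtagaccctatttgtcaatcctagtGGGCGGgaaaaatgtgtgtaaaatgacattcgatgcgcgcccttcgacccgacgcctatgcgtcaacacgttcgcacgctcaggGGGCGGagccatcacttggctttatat
Rpl3l holds CAGCTG, the E-box core of MyoD-type factors, from -14 to -9, in a footprint of replicate 1 and in none of replicate 2. Rpl3 holds a GC box from 4 to 9 in footprints of both libraries, CCAAT from -119 to -115 in a footprint of replicate 1, and another GC box from -81 to -76 in none. CAGCTG was found in 3 of the 77 standard promoters (3.90%, Wilson 95% interval 1.33 to 10.8%), none of them in a footprint, against 15.6% of all protein-coding promoters. CTAAAAATA, a motif of the muscle factor MEF2, was found in 0 of 77 (0 to 4.75%), against 0.456%. The motif is so rare that 77 promoters cannot show a lower share.

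The position of the peaks was set against the annotated starts. The strongest peak covered the principal start in both libraries for 54 of the 80 open members (51 of 77 standard), against 53.8% of protein-coding genes open in both, so the share was near the background. Its centre lay within 100 bp of the start for 53 of the 77 standard members in replicate 1 and 43 in replicate 2. These 2 counts are given without a share of all protein-coding genes. Of all 80 open members, paralogs included, the centre lay so in both libraries for 44, against 41.8% of protein-coding genes open in both. The strongest peak was wider in replicate 1 for 10 of the 77 standard members and in replicate 2 for 58. These counts, too, are given without a share of all protein-coding genes. The median width of the members' strongest peak was 220 bp in replicate 1 and 280 bp in replicate 2. All protein-coding genes had medians of 220 and 270 bp, a widening of like size. Rpl18 was farthest away, with a peak of 8.49 and 8.03 centred 2593 bp after its principal start and within 1 kb of a start of the sphingosine kinase gene Sphk2.

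The strongest peak was shared with the start of another coding gene for 15 of the 77 standard members, or 19.5%, against 20.2% of other open genes. The shared partners included Med22, a Mediator subunit gene beside Rpl7a, and Ndufa7, a respiratory complex I gene beside Rps28. For these members the signal cannot be assigned to one gene of the pair.

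Footprints were found within 1 kb of a start in both libraries for all 80 open members, against 97.7% of protein-coding genes open in both. The standard members summed to 573 footprints in replicate 1 and 650 in replicate 2, a median of 7 and 8 per gene, and all open protein-coding genes had a median of 7 and 7. Rpl7 with 22 and 17, Rps19 with 16 and 16, Rps14 with 16 and 19 and Rpl18 with 12 and 19 had the most. Of the footprint bases within 1 kb of the principal starts in replicate 1, 57.3% were in a footprint of replicate 2 as well, against 52.9% at other open genes. Of those in replicate 2, 56.2% were in a footprint of replicate 1, against 55.3%.

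Footprints of the ribosomal protein genes were densest in the 100 bp before the start. Their mean cover there was 31.4% in replicate 1 and 27.0% in replicate 2, against 21.2% and 21.4% in the 100 bp after it. In the bin centred at -10, 33.6% of the standard members were covered by a footprint in replicate 1 and 33.8% in replicate 2. Other bins came near, with 33.5% at -70 in replicate 1 and 30.6% at 10 in replicate 2. Other open genes reached at most 24.9% in replicate 1, at -50, and 22.0% in replicate 2, at -10. Within the 300 bases from 250 before to 50 after the principal start, footprints held 21.5% and 18.1% of the bases of standard members, against 16.5% and 14.2% in other open promoters. GC content, which can shift where DNase I cuts, had a median of 55.7% in these windows of the members and 60.7% in those of other open genes. Its part in the footprints, and that of the members' higher promoter signal, was not tested.

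**Figure D4:**
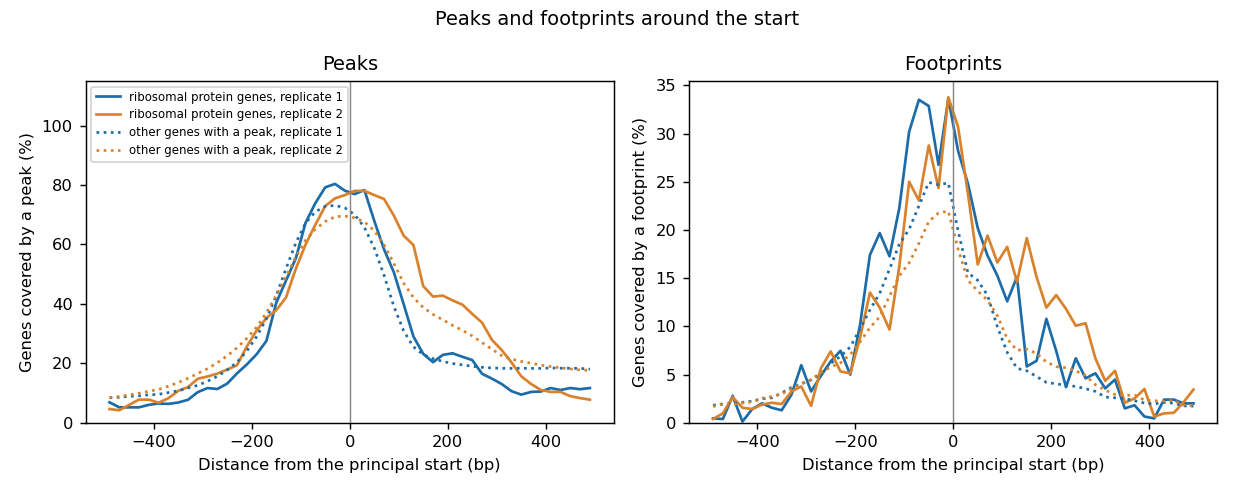
Percent of genes covered by a peak (left) or a footprint (right) in bins of 20 bp (y axis) by distance from the principal start (x axis), for the 77 standard ribosomal protein genes (solid) and the 13738 other protein-coding genes with a peak in both libraries (dotted). Footprint cover of the members reaches 33.6% and 33.8% at -10, above the highest cover of the other genes, 24.9% and 22.0%.

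Of the motifs searched, a palindromic element had the highest ratio of its share in these promoters to that in others. TCTCGCGA, a core bound by BANP and ZBTB33 (Kaiso), stood in the 300 bases of 14 of the 77 standard members, or 18.2% (Wilson 95% interval 11.2 to 28.2%, counting error only). It stood in 1.94% of other open promoters (1.73 to 2.19%) and in 1.38% of all protein-coding promoters. Each of the 14 promoters held 1 site, with overlapping matches on both strands counted once, at a median position of -23.5. In 7 genes the match was the full palindrome TCTCGCGAGA. Among the 14 genes are Rpl4, Rpl7a, Rpl10a, Rpl17, Rpl23a, Rpl26, Rpl27a, Rps3a1, Rps6, Rps15a, Rps19 and Rps28, of both subunits.

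Of the 14 sites, 9 lay in a footprint in both libraries, or 64.3%, against 147 of 294 sites in other open promoters. Taking replicate 1 by itself, 64.3% of the members' sites and 70.1% of the others were footprinted, and taking replicate 2 by itself 64.3% and 52.7%. Of the footprinted sites 7 are shown, with 10 bases on either side in the direction of transcription, the site in capitals.
Rpl7a (chr2:26910745-26910772, plus strand): gggcgcctgcTCTCGCGAtatctgcggc
Rps3a1 (chr3:86142677-86142704, minus strand): ccagctagtgTCGCGAGAttcttaaagc
Rps6 (chr4:86857399-86857428, minus strand): cgccggctgtTCTCGCGAGAacttagagcg
Rps15a (chr7:118116196-118116223, minus strand): gaccatgaagTCTCGCGAtagcgcttcc
Rpl26 (chr11:68901530-68901559, plus strand): gctccgagacTCTCGCGAGAtctcgcggca
Rpl10a (chr17:28328524-28328553, plus strand): aacgggcaacTCTCGCGAGAacgcgggctc
Rps28 (chr17:33824544-33824573, minus strand): ccgcgtgcggTCTCGCGAGAgcgaaagtga
Of the sites outside footprints 4 are shown for comparison.
Rpl4 (chr9:64173122-64173151, plus strand): gaaagataatTCTCGCGAGAgttgtgacga
Rpl23a (chr11:78183597-78183624, minus strand): atataagctaTCGCGAGActtttatgag
Rpl27a (chr7:109519164-109519191, plus strand): gcctgctaccTCGCGAGActtcgtgagc
Rps19 (chr7:24884140-24884167, plus strand): tatctcttggTCTCGCGAatgctaatgc
Of the 7 full palindromes, 6 lay in a footprint in both libraries, and of the 7 sites of 8 bases, 3 did. A longer site can more easily have the 4 bases in a footprint that were asked for. With 7 sites of each length the difference was not tested. The exception among the palindromes was that of Rpl4, from -243 to -234. Rps19 held its site far from the start as well, from -221 to -214.

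The 14 promoters with the site had a median signal of 8.35 in replicate 1 and 7.22 in replicate 2, and the other 63 standard promoters 5.58 and 4.97. Among other open promoters those with the site had 6.75 and 5.14 and those without it 3.74 and 3.44. Members with the site ranged from the highest, Rpl7a, to Rpl23a and Rpl4 near the bottom, so the ranges overlapped.

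**Figure D5:**
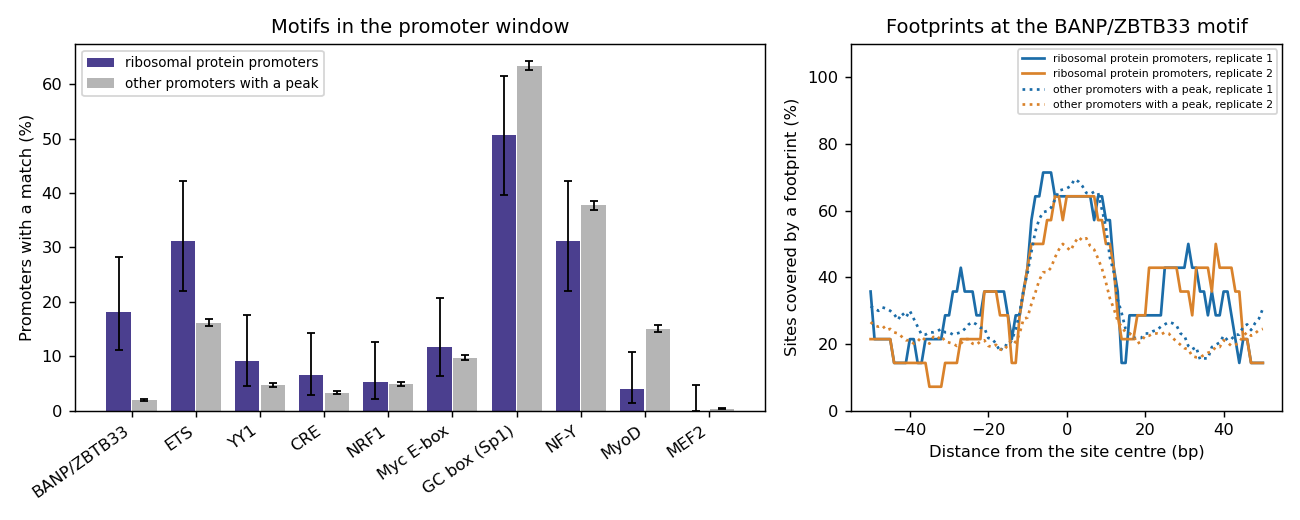
Left, percent of promoter windows with a match (y axis, bars with Wilson 95% intervals) for 10 motifs in the 77 standard ribosomal protein promoters and the 13738 other promoters with a peak in both libraries. Right, percent of BANP/ZBTB33 sites covered by a footprint (y axis) by distance from the site centre (x axis) in each library; the core of that motif stands in 18.2% of the ribosomal protein promoters and 1.94% of the others, and at its centre 64.3% of the members' sites are covered in each library.

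Motifs of ETS factors stood in more of the promoters. CCGGAAG, the core of ETS factors such as GABP, stood in 24 standard promoters (31.2%, 21.9 to 42.2%), against 16.2% of other open promoters and 11.2% of all. Of its 29 sites 9 lay in footprints of both libraries (31.0%, and 23.8% in other open promoters). In replicate 1 by itself the order was the other way, with 34.5% of the members' sites and 38.3% of the others, and in replicate 2 41.4% and 32.8%. Footprinted ETS sites stood, among others, in Rpl11, Rpl15, Rps2, Rps3a1, Rps7, Rps18 and Rps21. The YY1 core AANATGGCG stood in 7 (9.09%, 4.47 to 17.6%), against 4.63% of other open promoters and 3.14% of all, with 1 of 7 sites in footprints of both libraries, against 27.1% of sites in other open promoters. The CRE core TGACGTCA stood in 5 (6.49%, 2.81 to 14.3%), against 3.29% and 2.48%. For YY1 and CRE the interval includes the share of other open promoters and lies above that of all promoters. Of the 5 CRE sites 4 lay in footprints of both libraries (Rpl13, Rpl27a, Rps9 and Rps29), against 73.7% of the sites in other open promoters, a share near to it.

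The motifs most usual in CpG-rich promoters had shares nearer to the background. GC boxes (GGGCGG, bound by Sp1) stood in 39 standard promoters (50.6%, 39.7 to 61.5%), against 63.4% of other open promoters and 45.4% of all. CCAAT, bound by NF-Y, stood in 24 (31.2%), against 38.6% of all promoters. The E-box CACGTG of Myc and its partners stood in 9, against 7.72%, and the NRF1 core GCATGCGC in 4, against 3.73%. The interval of each of these 4 includes the share of all promoters, and that of the GC box lies below the share of other open promoters.

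The promoters with the most motif sites in footprints, beside Rplp0, were Rpl13a, Rpl27a and Rps21, each with 3 in both libraries. They are shown because each carries another set.
Rpl13a (chr7:45128732-45128881, minus strand): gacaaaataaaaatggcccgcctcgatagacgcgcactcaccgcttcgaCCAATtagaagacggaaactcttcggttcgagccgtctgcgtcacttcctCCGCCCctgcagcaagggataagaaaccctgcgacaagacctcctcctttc
Rpl27a (chr7:109519027-109519176, plus strand): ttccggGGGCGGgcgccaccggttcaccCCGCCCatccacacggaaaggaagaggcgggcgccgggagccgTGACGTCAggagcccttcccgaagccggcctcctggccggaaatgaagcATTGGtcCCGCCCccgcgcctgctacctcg
Rps21 (chr2:180257257-180257406, plus strand): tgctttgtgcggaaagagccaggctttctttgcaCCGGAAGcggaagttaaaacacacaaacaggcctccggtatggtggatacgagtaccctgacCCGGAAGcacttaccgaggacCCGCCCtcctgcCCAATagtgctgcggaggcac
Within this window Rpl27a has its CRE from -49 to -42 and GC boxes from -114 to -109 and from 8 to 13 in footprints of both libraries. Rps21 has ETS motifs from -86 to -80 and from -24 to -18 and a GC box from -3 to 3 in footprints of both libraries. Rpl13a has a GC box from -21 to -16 in footprints of both libraries, and before the printed window CCAAT from -124 to -120 and a YY1 core from -238 to -230, in footprints of both as well.

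The terminal pyrimidine tract could be seen in part at the annotated starts. A C at the start followed by 4 or more pyrimidines was found for 8 standard members (10.4%), against 2.27% of all protein-coding genes. Within 5 bases of the start it was found for 22 (28.6%), against 18.2%. Annotated starts can lie some bases from the main start used in a tissue, and DNase-seq does not map it. No standard member had TATAAA from 40 to 15 bases before its start, against 2.48% of all protein-coding genes. From 40 bases before to 50 after the start 4 members held it (5.19%), against 3.77% of all protein-coding genes.

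Distal open sites were counted around each gene. At least 3 distal peaks, which overlap no 1 kb window of any annotated start, lay within 20 kb of the gene in both libraries for 7 members, against 19.2% of all protein-coding genes. The 7 were Rpl14, Rpl19, Rpl27a, Rpl29, Rpl32, Rplp1 and Rps14, all standard members, or 9.09% of the 77. Among the 3388 protein-coding genes of 2034 to 6007 bp, the lengths that span most of these short genes, 9.36% had as many. The share was thus near that of genes of this length, open or not. Of those 3388 genes 42.3% had a promoter peak in both libraries, against all 77 standard members. Open genes of this length were not counted by themselves. With replicate 1 alone 17 members had as many, against 37.7% of all protein-coding genes, and with replicate 2 alone 10, against 21.2%. No distal peak was found in either library for 20 of the 77 standard members (26.0%), against 26.9% of all protein-coding genes and 41.6% of those of like length. Rpl32 and Rps14 had the most, 6 in replicate 1 and 4 in replicate 2.

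Another feature of the genes themselves is that they house small nucleolar RNAs, which guide the modification of ribosomal RNA and are cut from introns. A snoRNA gene lay on the same strand inside 30 of the 77 standard members (39.0%, 28.8 to 50.1%), 58 snoRNA genes in all, against 1.18% of all protein-coding genes. Rpl4 held 5 and Rpl13a held 4. The 30 hosts had a median signal of 6.92 and 5.70 and the other 47 one of 5.87 and 4.97, while the weak promoter of Rpl4 belonged to a host. Other protein-coding genes open in both went the same way, with 5.12 and 4.32 for hosts and 3.79 and 3.47 for the rest.

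Among the 80 members open in both libraries no promoter was over 2-fold apart between them, which is near the 1.98% of protein-coding genes open in both. After centring on the median ratio over all promoters open in both (a log2 ratio of 0.12, replicate 1 over replicate 2), the standard members ranged from -0.84 to 0.84. Over 1.5-fold apart were 12 of the 80, a share near the 17.2% of protein-coding genes open in both. Replicate 1 was higher for 8 of them (Rpl15, Rpl27, Rps2, Rps16, Rpl10, Rpl13a, Rps21 and Rpl38), with 9.47 in replicate 1 and 4.87 in replicate 2 at Rpl15. Among all protein-coding genes so far apart 951 were higher in replicate 1 and 1431 in replicate 2, but 12 members are too few to set their split against this one. Replicate 2 was higher for 4 members (Rpl21, Rpl4, Rpl23a and Rpl32), with 4.99 in replicate 1 and 8.26 in replicate 2 at Rpl21.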

How the data were processed

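The deposited peak lists, footprint lists and false discovery rates per position of 2 DNase-seq libraries on mm10 were used. According to the submitters' notes in the deposited folder, every list was made from its own library's reads. The aligner, the callers and their settings are not named in the labels or files. The deposited signal of all peaks fell on whole tags within 0.1 tag. The longer deposited peak list of each library was used. The deposited rates are q-values, listed below 0.05, and footprints carry a constant of 0.01, so they were counted and not ranked.

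Genes came from GENCODE release M21 and sequence from RefSeq GRCm38.p6. The principal start has the best APPRIS rank, then support, then length. Promoter peaks and footprints overlapped the 1 kb on either side of any start by 1 bp. Percentiles are among open protein-coding promoters of a library. Motifs were searched without mismatch from 250 bases before to 50 after the principal start, each on its own, so sites of different motifs may overlap; overlapping matches of 1 motif were merged. A site counted as footprinted with 4 or more bases in a footprint. Wilson 95% intervals cover counting error only. The lists were read with bedtools 2.31.1, Python 3.11.15, numpy 2.4.6, pandas 2.3.3, scipy 1.17.1 and pysam 0.24.0, and the code was tested on simulated data.

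With 1 group there is no test, and the spread over 2 libraries may be biological or technical. Members, lists, motifs and markers were chosen with earlier results of these data known. The rule named the 6 highest and 6 lowest members by mean percentile, those without a peak in a library, paralogs, the 4 with the most footprints, any beyond 2-fold between libraries (none) and 10 fixed genes; others were named after their values were seen, as examples of a count. Some members that fall under these rules are not reported here by name, but all are in the counts and medians. No sequence of chromosome 18 is printed.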

Additional observations from a re-analysis of the deposited data

How the results depend on the processing

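The counts of open members lay at 64 to 81 and those of members with a promoter footprint at 77 to 81. Strongest peaks over the principal start numbered 51 to 63. All stayed within 1.5 times of the reported 80, 80 and 54 under every alternative tried. These were windows of 500 and 2500 bp where they apply, the principal start alone, the stricter list and the stronger 50% of peaks. Footprints inside a peak, unshared peaks, standard members alone and either library alone were tried as well. Unshared peaks gave the 64 open members, against 50.3% of all protein-coding genes. A peak centre within 100 bp of the start, in place of a peak over it, gave 44 members, against 41.8% of protein-coding genes open in both. The median percentile of 74.1 fell to 70.6 with the stronger 50% of peaks and lay between 71.9 and 75.8 otherwise. The count of members with 3 or more distal peaks, 7, was 27 within 50 kb (38.2% of all protein-coding genes), 1 within 10 kb (13.1%), 1 with the stricter list (8.28%), 2 with the stronger 50% of peaks (8.55%) 17 with replicate 1 alone (37.7%) and 10 with replicate 2 alone (21.2%). Counts of motifs among the 90 members changed with the core searched: 9 for CTCGCGAG in place of 14 for TCTCGCGA (1.20% of all promoters), 50 for CGGAAG in place of 26 (20.7%), 22 for ATGGCG in place of 7 (10.7%) and 15 for GGGGCGGG in place of 44 (22.1%). With 500 bases before to 100 after the start, CCAAT stood in 44 in place of 27 (57.5%). With 300 bases around the centre of the strongest replicate 1 peak, an alternative chosen after seeing the data, the YY1 core stood in 11 in place of 7 (6.04%), and TCTCGCGA in 15 (2.42%). With starts from the RefSeq table, which held 64 of the 90 members, TCTCGCGA stood in 10 (1.55%). Raising the fold between libraries to 2 left 0 members in place of 12 (1.98% of genes open in both). The causes of these changes were not tested beyond what each setting itself alters. No paired analysis was possible because there is 1 group. The weakest standard promoter rested on 302 and 208 tags, and with 2 libraries an SD says little of the spread between animals.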

Other observations

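Processed pseudogenes named after ribosomal proteins, copies of their messenger RNAs set back into the genome without the promoter, mostly had no peak. Of 301 of them, 16 had a peak within 1 kb of the start in replicate 1, 12 in replicate 2 and 10 in both. The share in both was 3.32% (Wilson 95% interval 1.81 to 6.01%), against 63.0% of all protein-coding genes. Other processed pseudogenes were not counted, so whether this share is usual for such copies was not tested. How reads that match several copies were placed is not stated, so peaks over them may have been missed. Among the 289 over 2 kb from any coding start 8 were open in both, or 2.77%, and the strongest of these in replicate 1 was Rps15a-ps2 with 1.77 in replicate 1 and 0.496 in replicate 2. Rpl30-ps6 had 1.04 and 2.44, and Rps4l, which lies inside a coding gene, had 0.804 and 0.991.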
